A study of Mus musculus with 6 samples.

Results

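Genes of the FoxO transcription factors and of the ubiquitin ligases that work beside them in muscle were followed in the quadriceps of mice lacking 1 nebulin allele. The list held 10 genes, namely Foxo1, Foxo3 and Foxo4, the TRIM-type ligase genes Trim63, Trim54 and Trim55, and the F-box genes Fbxo32, Fbxo30, Fbxo31 and Fbxo21. They were chosen by name, through the Entrez identifiers that serve as row names, and 9 of them were found among 16492 gene probe sets. Trim55 was not analysed here. The 9 genes had 1 probe set each.

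Messenger RNA of the quadriceps, a large thigh muscle, was measured on Affymetrix arrays, 1 for each mouse. The labels give 3 heterozygous mice with the genotype nebulin +/- and 3 wild-type mice with the genotype nebulin +/+, each a separate animal, and the title of the series calls the former heterozygous knock-out mice. Treatment is given as none, and the sources used here give no strain, sex or age, nor which part of the gene was deleted. Nebulin is a giant protein that lies along the actin filaments of skeletal muscle, and the comparison asks which transcripts differ when 1 copy of its gene is lost.

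FoxO factors are transcription factors held out of the nucleus by insulin and growth factor signalling through the kinases AKT and SGK. When that signalling falls, in fasting, disuse or under glucocorticoids, they enter the nucleus and raise the genes of protein breakdown. Their best known targets in muscle are the ubiquitin ligases MuRF1, encoded by Trim63, and atrogin-1, encoded by Fbxo32, which attach ubiquitin to muscle proteins and are used as markers of atrophy. F-box proteins such as atrogin-1 bind the substrate within a larger ligase built on SKP1 and CUL1, called SCF, whereas MuRF proteins are single-chain ligases with a RING domain that sit on the sarcomere.

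All arrays carried the same distribution of log2 signals, from 5.56 to 14.81, so that a change common to all transcripts could not be seen. A probe set was tested when its mean over the 6 mice was above 6.74 on the log2 scale, the 30th percentile, which left 11544 probe sets. Of these, 359 (3.11%) passed an adjusted p of 0.05 (limma, Benjamini-Hochberg over all tested probe sets), 177 higher and 182 lower in heterozygous muscle. With the mouse number as a block 572 (4.95%) passed. The genotypes did not overlap at 26.3% of tested probe sets. The signal of Neb, the targeted gene, was 11.92 ± 0.17 in heterozygous muscle against 12.14 ± 0.05 (SD of 3 mice in each genotype; limma, adjusted p = 0.161). Its log2 difference of -0.22 became -0.13 without heterozygous mouse 2 (adjusted p = 0.307) and -0.31 without heterozygous mouse 1, where it passed (0.0399). The bright muscle genes Acta1 and Ckm, at means of 14.81 and 14.64, matched the labelled tissue. Of 5 cardiac markers 2 were bright enough to be tested, Tnnt2 at a mean of 7.11 and Nppa at 6.78. Myh6 was the dimmest of the 5, at 6.03 in heterozygous and 6.02 in wild-type mice. In these bulk samples, fewer cells of a type and less RNA in each cell cannot be told apart.

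Of the 9 genes, 8 passed the filter on dim probe sets, and 1 of these 8 rose while none fell and 7 did not pass. The gene that rose was Foxo1. By comparison, 3.11% of all tested probe sets passed in either direction, 1.53% upward and 1.58% downward. The median log2 difference over the 8 genes was -0.06, and that over all tested probe sets was -0.0013. At an unadjusted limma p of 0.05, 4 of the 8 genes fell under the threshold, as did 20.5% of all tested probe sets. The genotypes did not overlap at 3 of the 8 genes, 1 of them higher and 2 lower in heterozygous mice, beside 13.1% of all tested probe sets that were higher and 13.2% that were lower without overlap.

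**Figure D1:**
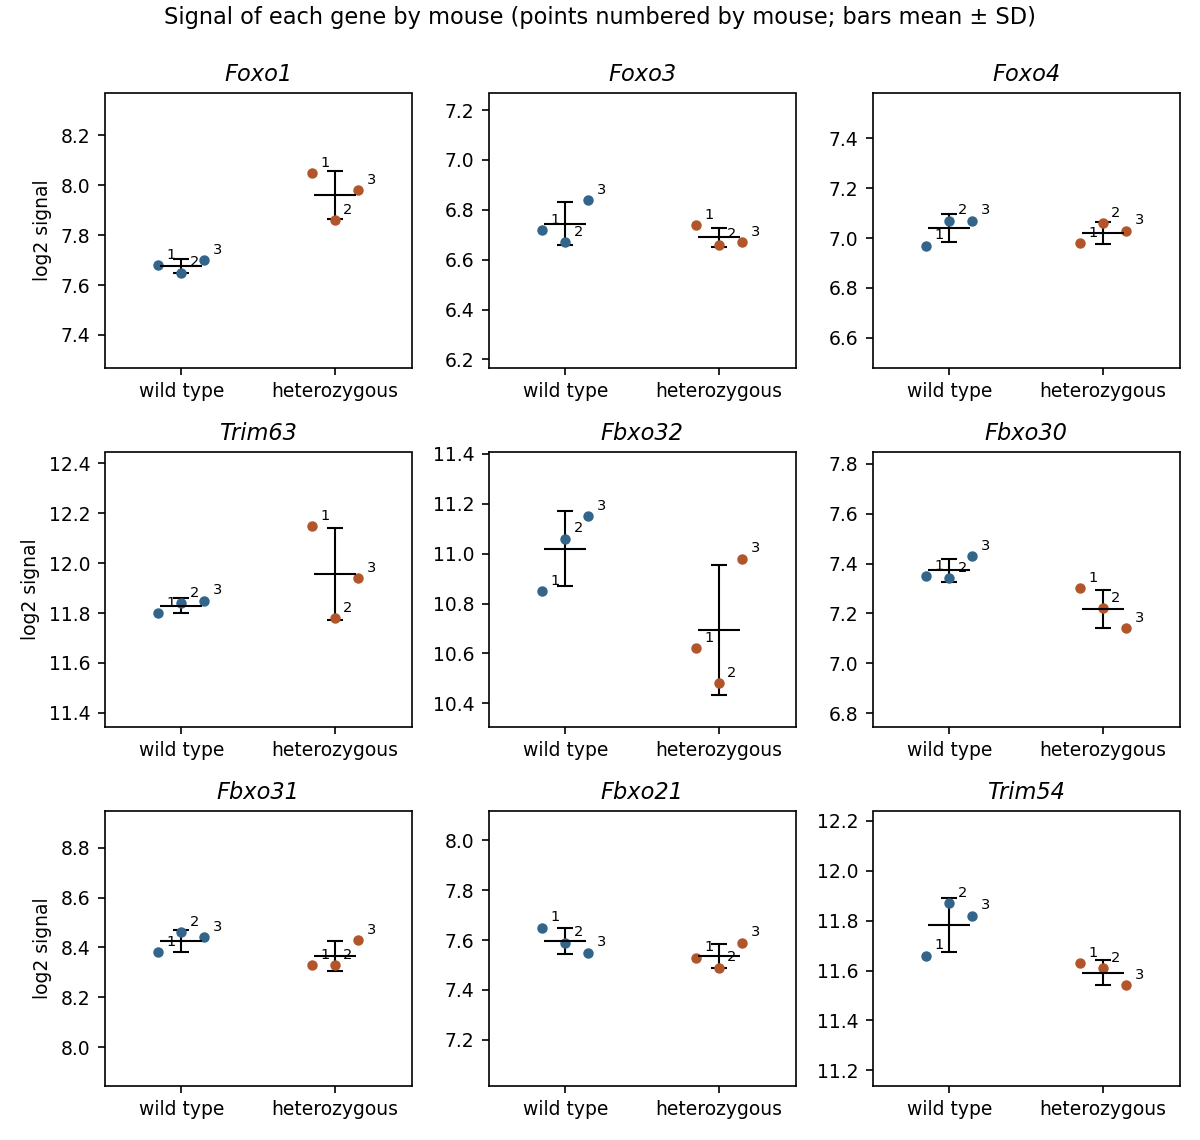
Log2 signal of the 9 genes in each mouse, in 1 panel per gene, with points numbered by mouse, and the mean and SD of each genotype as black bars. Every panel spans the same height on the log2 axis, centred on the gene's own mean. Foxo1 is higher in each heterozygous mouse than in any wild-type mouse, Trim54 and Fbxo30 are lower, and Fbxo32 has the widest range, 0.67.

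Foxo1 encodes a FoxO factor studied as an activator of muscle protein breakdown. Its log2 signal was 8.05, 7.86 and 7.98 in heterozygous mice 1, 2 and 3, and 7.68, 7.65 and 7.70 in wild-type mice 1, 2 and 3. The lowest heterozygous mouse, mouse 2, thus lay above the highest wild-type mouse, and the spread was wider in heterozygous mice (SD 0.096) than in wild-type mice (SD 0.030). The log2 difference, heterozygous minus wild type, was 0.28 ± 0.05 (SE), a 1.22-fold rise with a 95% interval of 1.12-fold to 1.32-fold (limma, adjusted p = 0.031). This difference was larger in size than those of 97.3% of tested probe sets. The rise passed in 2 of the 6 fits that left out a mouse, those without heterozygous mouse 1 (adjusted p = 0.0378) and without heterozygous mouse 2 (0.0328). It did not pass without heterozygous mouse 3 (limma, adjusted p = 0.103) or without wild-type mouse 1, 2 or 3 (0.091, 0.0929 and 0.0682), although the log2 difference stayed between 0.24 and 0.34 in all 6 fits.

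Transcripts of slow muscle fibres were higher in the same heterozygous mice. Of 7 slow-fibre markers 6 passed the test, all of them higher, and with the mouse number as a block the other one, the calcium pump gene Atp2a2, passed as well (log2 difference 0.82; limma, adjusted p = 0.0625, and 0.0127 with the block). For the list as a whole, the summed linear signal was 22698 to 28179 in heterozygous and 8540 to 12213 in wild-type mice. Of 7 genes listed for fast muscle, which include the general muscle genes Acta1 and Ckm, none passed (limma, smallest adjusted p = 0.281). None of the 7 had an unadjusted p under 0.05. Most of them lie at the bright end of the shared distribution, where Acta1 had a single value on all 6 arrays and Ckm, Tnnt3 and Tnni2 varied by no more than 0.027, so that a difference in them was hardly measurable. The fast myosin genes Myh4 and Myh1, which varied more, had log2 differences of -0.26 and -0.18 (limma, adjusted p = 0.281 and 0.291, and 0.0792 and 0.187 with the block). None of the markers tested of adipocytes (3), leukocytes (4), endothelium (5) and fibroblasts (5) passed. Of them 1, 0, 3 and 1 were under an unadjusted limma p of 0.05, beside 20.5% of all tested probe sets. With the mouse number as a block the endothelial receptor gene Kdr passed (log2 difference -0.25; limma, adjusted p = 0.0575, and 0.0174 with the block). The summed signal of the endothelial list was 1268 to 1414 in heterozygous and 1427 to 1527 in wild-type mice. The part of fibre type or of these cells in the differences described here was not tested.

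Foxo3 encodes the FoxO factor that also drives genes of autophagy in muscle. Its probe set was dim, with a mean of 6.72 just under the filter at 6.74. It measured 6.74, 6.66 and 6.67 in heterozygous mice and 6.72, 6.67 and 6.84 in wild-type mice, and the groups overlapped. Fitted with no filter, its log2 difference was -0.06 ± 0.05 (SE), with a 95% interval of -0.17 to 0.06 (limma, adjusted p = 0.602).

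Foxo4, the third FoxO gene measured, is carried on the X chromosome. Its signal was 6.98, 7.06 and 7.03 in heterozygous mice and 6.97, 7.07 and 7.07 in wild-type mice. All 6 mice lay within 0.10 of each other. The log2 difference was -0.02 ± 0.04 (SE; limma, adjusted p = 0.846), with a 95% interval of -0.12 to 0.08, which leaves out a rise as large as the 0.28 of Foxo1.

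Foxo1 was set beside the other FoxO genes by within-array ratios, the log2 signal of a gene minus that of another on the same array. A ratio compares changes between mice and not the amounts of the transcripts, since probe sets respond differently. The log2 ratio of Foxo1 to Foxo4 was 1.07, 0.79 and 0.95 in heterozygous mice and 0.71, 0.57 and 0.63 in wild-type mice. Each heterozygous mouse was above each wild-type mouse, and the ratio was 0.30 ± 0.09 higher (SE). The log2 ratio of Foxo1 to Foxo3 was 1.31, 1.19 and 1.31 against 0.96, 0.97 and 0.86, again without overlap and 0.34 ± 0.05 higher, with Foxo3 under the filter on dim probe sets. Both had a two-sided exact permutation p of 0.1, the smallest that 3 mice against 3 allow, and 0.125 after Benjamini-Hochberg adjustment over the 5 ratios examined, so neither could pass a threshold of 0.05. Between mice of the same number, 4 of the 5 ratios were higher in the heterozygous mouse in all 3 pairs, those of Foxo1 to Foxo3 and Foxo4 and of Trim63 to Fbxo32 and Trim54, each with an exact permutation p within pairs of 0.25, the smallest that 3 pairs allow. These 4 are not separate results, since they share Foxo1 or Trim63. Foxo4 varied by only 0.10 over the 6 mice and Foxo3 by 0.17, and Foxo1 alone was without overlap. The ratios of Foxo1 therefore mostly repeat its own values and add little to its result. How often other pairs of genes have such a pattern was not tested.

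Trim63 encodes MuRF1, the RING ligase that binds titin at the M-band. Its promoter is shown because it holds the letters of a FoxO recognition motif, GTAAACA or, on the other strand, TGTTTAC. The sequence runs from 250 bases before the gene's start to 50 bases after it and is credited to RefSeq, build GRCm38.p6, chr4:134314870-134315169, plus strand, with the match in capitals.
Trim63: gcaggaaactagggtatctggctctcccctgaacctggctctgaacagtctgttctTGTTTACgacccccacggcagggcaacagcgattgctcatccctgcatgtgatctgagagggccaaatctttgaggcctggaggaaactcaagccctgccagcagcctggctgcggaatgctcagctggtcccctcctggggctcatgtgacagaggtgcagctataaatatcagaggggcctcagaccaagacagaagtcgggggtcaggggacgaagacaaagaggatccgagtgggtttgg
The match is the form TGTTTAC and begins 194 bases before the gene's start. Of the 7 members with a promoter sequence, Foxo1, Foxo3, Trim63, Fbxo30, Fbxo31, Fbxo21 and Trim54, only Trim63 held either form, which occurs in 3.65% of 32851 promoters of this length. A match of letters describes the sequence and shows no binding.

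The log2 signal of Trim63 was 12.15, 11.78 and 11.94 in heterozygous mice and 11.80, 11.84 and 11.85 in wild-type mice. Heterozygous mouse 1 was the highest of all mice and heterozygous mouse 2 the lowest, while the wild-type mice lay close together (SD 0.185 against 0.029). The log2 difference was 0.13 ± 0.08 (SE), with a 95% interval of -0.06 to 0.31, and did not pass (limma, adjusted p = 0.408). It was 0.03 without heterozygous mouse 1 and 0.22 without heterozygous mouse 2.

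Fbxo32 encodes atrogin-1, the F-box protein whose reported substrates include MyoD and the translation factor subunit eIF3f. It measured 10.62, 10.48 and 10.98 in heterozygous mice and 10.85, 11.06 and 11.15 in wild-type mice. Heterozygous mice 1 and 2 were below all wild-type mice, but heterozygous mouse 3 lay above wild-type mouse 1, so the groups overlapped. The log2 difference was -0.32 ± 0.12 (SE), the largest in size among the 9 genes, with a 95% interval of -0.61 to -0.04 that does not include 0. After adjustment it did not pass (limma, adjusted p = 0.189, and 0.0634 with the mouse number as a block). The spread between mice of 1 genotype was also the widest of the 9 genes, with a pooled SD of 0.212 against a median of 0.055 over all tested probe sets. Without heterozygous mouse 3 the log2 difference was -0.47 (limma, adjusted p = 0.0737), and without heterozygous mouse 2 it was -0.22 (0.424).

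The estimated differences of the 2 atrophy markers were of opposite sign, but neither passed and the interval of Trim63 spanned both signs. The log2 ratio of Trim63 to Fbxo32 was 1.53, 1.30 and 0.96 in heterozygous mice 1, 2 and 3, and 0.94, 0.79 and 0.70 in wild-type mice 1, 2 and 3. The heterozygous mice were higher without overlap, by 0.45 ± 0.18 (SE), although heterozygous mouse 3, at 0.96, was next to wild-type mouse 1, at 0.94. The exact permutation p was 0.1 (0.125 adjusted over the 5 ratios), the smallest possible, and leaving out a mouse gave differences of 0.32 to 0.60.

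Trim54 encodes MuRF3, a relative of MuRF1 that binds microtubules and is needed for stable microtubules in developing muscle. Its log2 signal was 11.63, 11.61 and 11.54 in heterozygous mice and 11.66, 11.87 and 11.82 in wild-type mice. Each heterozygous mouse was lower than each wild-type mouse, with wild-type mouse 1 just above heterozygous mouse 1. The signal was 12.5% lower (95% interval 4.09% to 20.2% lower; log2 difference -0.19 ± 0.06, SE) and did not pass (limma, adjusted p = 0.111). The log2 ratio of Trim63 to Trim54 was 0.52, 0.18 and 0.41 in heterozygous mice and 0.14, -0.02 and 0.03 in wild-type mice, higher by 0.32 ± 0.11 (SE) without overlap (exact permutation p = 0.1, adjusted 0.125).

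Fbxo30 encodes the F-box protein also called MUSA1, an SCF ligase subunit that is induced in denervated mouse muscle and restrained by BMP signalling. It measured 7.30, 7.22 and 7.14 in heterozygous mice and 7.35, 7.34 and 7.43 in wild-type mice. The heterozygous mice were lower without overlap, by 0.15 ± 0.05 on the log2 scale (SE; 95% interval of the difference -0.26 to -0.04), which did not pass (limma, adjusted p = 0.126). The log2 ratio of Fbxo32 to Fbxo30 was 3.32, 3.26 and 3.84 in heterozygous and 3.51, 3.71 and 3.72 in wild-type mice. These overlapped, with a difference of -0.17 ± 0.20 (SE; exact permutation p = 0.4, also 0.4 adjusted).

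Fbxo31 and Fbxo21 are F-box genes induced with the atrophy programme of mouse muscle, the latter also named SMART. Fbxo31, a ligase subunit known from the control of cyclin D1 after DNA damage, measured 8.33, 8.33 and 8.43 in heterozygous and 8.38, 8.46 and 8.44 in wild-type mice. Fbxo21 measured 7.53, 7.49 and 7.59 in heterozygous and 7.65, 7.59 and 7.55 in wild-type mice. The groups overlapped for both genes. The log2 difference was -0.06 ± 0.04 (SE) for each, with 95% intervals of -0.16 to 0.04 (limma, adjusted p = 0.482 for Fbxo31 and 0.471 for Fbxo21), so that a fall beyond about 10.5% lay outside the interval of Fbxo31.

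**Figure D2:**
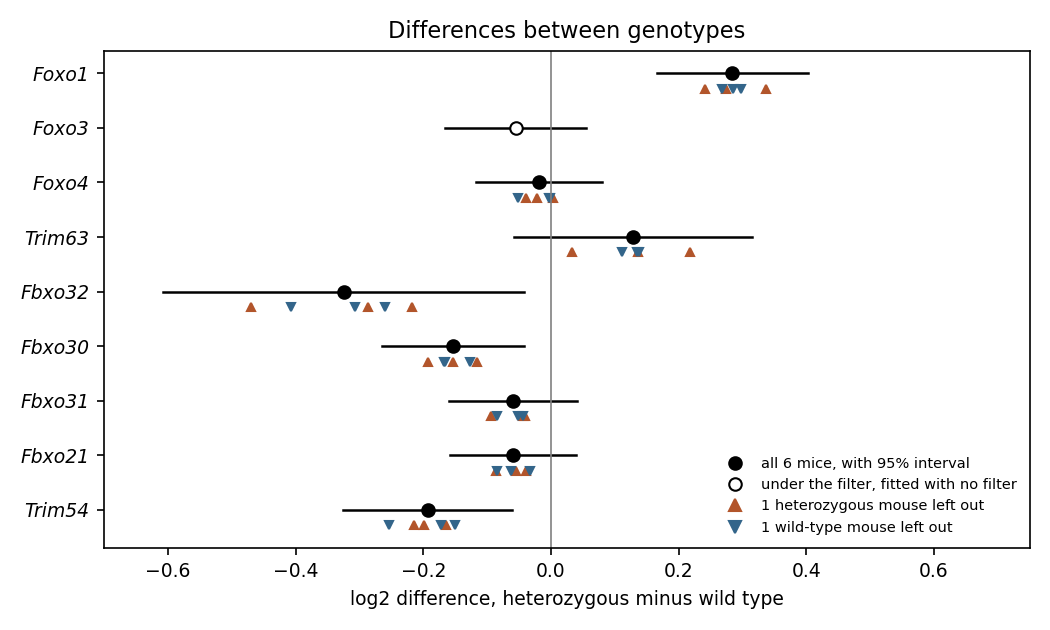
Log2 difference between genotypes for each of the 9 genes, with its 95% interval, and below it the values after leaving out 1 heterozygous mouse (upward triangles) or 1 wild-type mouse (downward triangles). The open circle, Foxo3, was fitted with no filter on dim probe sets. The interval of Foxo1 lies above 0, those of Fbxo32, Fbxo30 and Trim54 lie below 0, and only Foxo1 passed after adjustment.

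**Figure D3:**
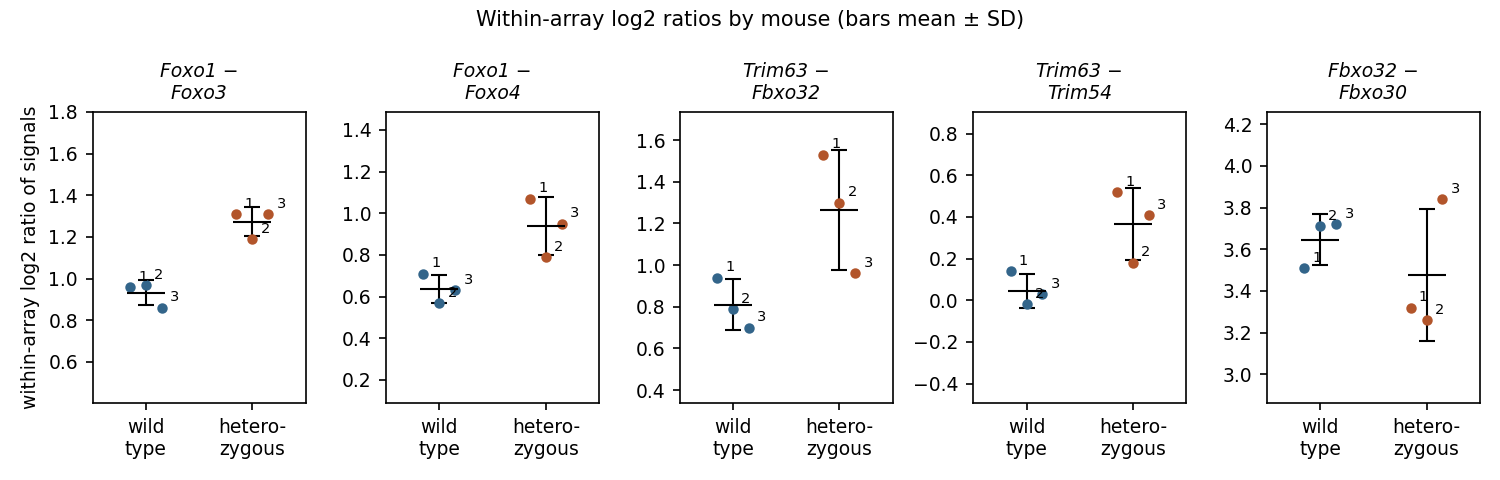
Within-array log2 ratio of signals in each mouse for the 5 pairs of genes, with points numbered by mouse and the mean and SD of each genotype. Heterozygous mice are above wild-type mice without overlap for Foxo1 against Foxo3 and Foxo4 and for Trim63 against Fbxo32 and Trim54, and the groups overlap for Fbxo32 against Fbxo30.

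The genes upstream of FoxO were described from a list of 27, of which 21 were tested. Sgk1, whose kinase phosphorylates FoxO factors and keeps them out of the nucleus, was the 1 gene that passed. Its mean log2 signal was 12.32 ± 0.18 with 1 nebulin allele and 11.80 ± 0.13 with both (SD of 3 mice in each genotype), a 1.43-fold rise (log2 difference 0.51 ± 0.10, SE; limma, adjusted p = 0.0321). Of the 6 fits that left out a mouse it passed in 2, those without heterozygous mouse 1 and without wild-type mouse 3, and the adjusted p of the others reached 0.103. None fell and 20 did not pass (4.76% called, against 3.11% of all tested probe sets), and the list median was -0.05. An unadjusted limma p under 0.05 was found for 5 of the 21, against 20.5% of all tested probe sets. Pik3r1, the regulatory subunit of the insulin-stimulated lipid kinase, had a difference of 0.18 ± 0.05 (limma, adjusted p = 0.0722). With the mouse number as a block a second gene passed, the growth factor gene Igf1, named after its value was seen (log2 difference -0.17 ± 0.07; limma, adjusted p = 0.216, and 0.0467 with the block). The AKT kinase genes Akt1 and Akt2, also named after their values were seen, had differences of -0.05 and -0.06.

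Of 24 genes known as FoxO targets in muscle or other cells, beside the ligases, 21 were tested, of which 1 rose, none fell and 20 did not pass (4.76% called, against 3.11% of all tested probe sets). An unadjusted limma p under 0.05 was found for 9 of the 21 genes, against 20.5% of all tested probe sets. Their median log2 difference was -0.0088, with 10 positive. The extremes were -0.96 for Pdk4 and 0.35 for Bcl6, both named after their values were seen, and neither passed. Cdkn1a, encoding the cell cycle inhibitor p21, rose (7.94 ± 0.03 against 7.65 ± 0.11, SD, n = 3 each; log2 difference 0.29 ± 0.06; limma, adjusted p = 0.0354), and of the 6 fits that left out a mouse it passed only in that without wild-type mouse 2, with adjusted p up to 0.113 in the others. Map1lc3a, of the LC3 family that coats autophagosomes, had a difference of 0.21 ± 0.05 (limma, adjusted p = 0.0662). Cat, the catalase gene, named after its value was seen, passed with the mouse number as a block (log2 difference -0.47 ± 0.12; limma, adjusted p = 0.0803, and 0.00232 with the block). The FoxO recognition letters were found in promoters of 2 of the 21 listed targets with a promoter sequence, Sesn1 and Bcl2l11, whose log2 differences were 0.19 and -0.02.

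The core of the SCF ligase and its regulators were represented by 9 tested genes, which include the F-box genes Btrc, Fbxw7 and Fbxw11. Skp1, the adaptor that holds the F-box, fell from 11.32 ± 0.03 in wild-type to 11.09 ± 0.03 in heterozygous mice (SD, n = 3 each), a log2 difference of -0.23 ± 0.04 (SE; limma, adjusted p = 0.0236). Of the 6 fits that left out a mouse it passed only in that without heterozygous mouse 1, with adjusted p up to 0.0831 in the others and a log2 difference between -0.24 and -0.22 in all 6. None rose and 8 did not pass (11.1% called, against 3.11% of all tested probe sets). An unadjusted limma p under 0.05 was found for 4 of the 9, against 20.5% of all tested probe sets. Fbxw7, an F-box gene whose product recognises phosphorylated substrates, had a difference of 0.21 ± 0.05 (limma, adjusted p = 0.0665), and the list median was 0.03.

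None of 14 other ubiquitin ligases studied in muscle passed (limma), and their median difference was -0.04. An unadjusted limma p under 0.05 was found for 3 of them, against 20.5% of all tested probe sets. Nedd4, a HECT-type ligase, came closest at -0.19 ± 0.04 (adjusted p = 0.0531), followed by Trim32, a ligase of the sarcomere mutated in limb-girdle muscular dystrophy, at -0.14 ± 0.04 (adjusted p = 0.0997). None of 15 genes for E2 enzymes, which hand ubiquitin to the ligases, passed (limma), with 1 under an unadjusted p of 0.05, against the same 20.5%. Their differences ran from -0.13 for Ube2d1 (adjusted p = 0.224) to 0.07 for Ube2w (0.345), with a median of -0.02.

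Among 10 tested genes for reported partners and substrates of the MuRF proteins and atrogin-1, 1 rose, none fell and 9 did not pass. That is 10% called, against 3.11% of all tested probe sets, and the median difference was 0.0099. The gene that rose was Myl2, the slow myosin light chain, which is also among the slow-fibre markers above (log2 difference 0.71 ± 0.14; limma, adjusted p = 0.0347). Of the 6 fits that left out a mouse it passed in those without wild-type mouse 2 and without wild-type mouse 3, with adjusted p up to 0.111 in the others, and with trend and robust variances it did not pass (0.0759). Myod1, the myogenic factor degraded through atrogin-1, had a difference of 0.35 ± 0.08 (limma, adjusted p = 0.0612, and 0.0368 with the mouse number as a block). Titin, which binds the MuRF proteins, had a difference of -0.18 for Ttn, and the autophagy receptor genes Nbr1 and Sqstm1 had -0.07 and 0.01, all named after their values were seen.

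The wider gene families gave a further background, which overlaps the lists above. Fbxw7 and Fbxw11 of the SCF list are among the F-box genes, and Trim32 is among the TRIM genes. Of 43 other F-box genes tested none passed (limma, smallest adjusted p = 0.0506), and the median difference was 0.02. An unadjusted limma p under 0.05 was found for 12 of the 43, against 20.5% of all tested probe sets. Of 32 other TRIM genes tested, 1 fell, none rose and 31 did not pass, with a median of -0.0070 (3.12% called, against 3.11% of all tested probe sets). The gene that fell was Trim24, a nuclear receptor cofactor, with a log2 difference of -0.25 ± 0.05 (SE; limma, adjusted p = 0.0449). It passed without heterozygous mouse 1 and in no other fit that left out a mouse (adjusted p up to 0.143), and it did not pass with cyclic loess (0.0572). With the mouse number as a block Fbxo17 passed among the F-box genes, and Trim16 and Trim40 among the TRIM genes (adjusted p = 0.0423, 0.0335 and 0.041), named here after their values were seen.

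**Figure D4:**
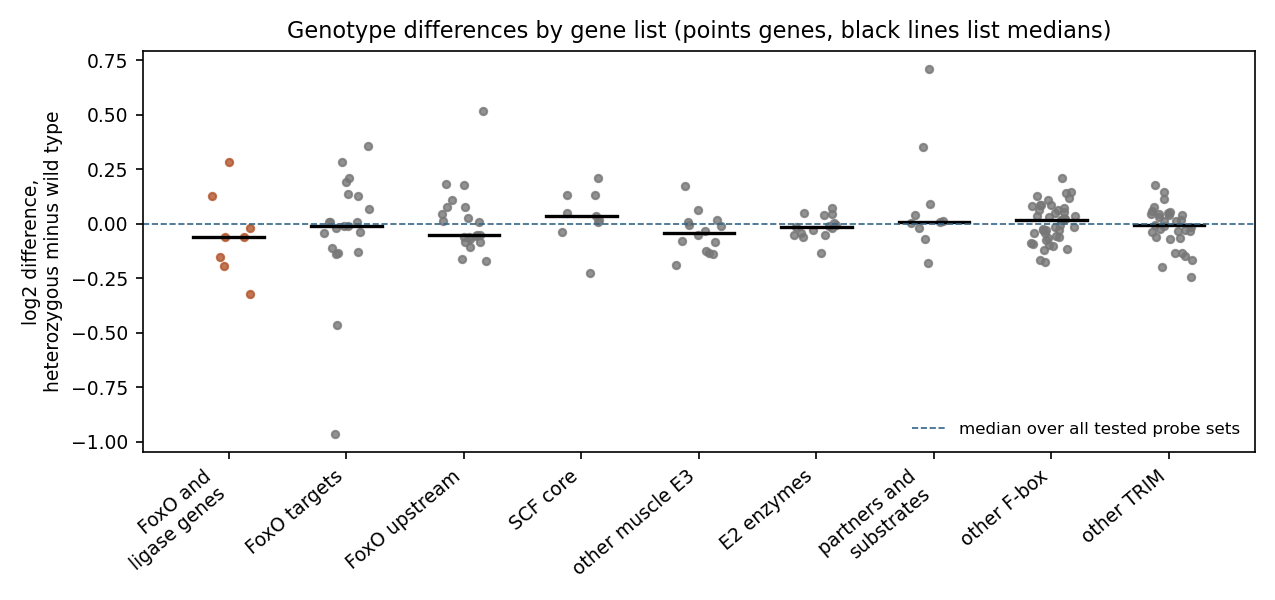
Log2 difference, heterozygous minus wild type, of every tested gene in each list, with the list median as a black line and the median over all tested probe sets as a dashed line. The medians of the pathway lists lie between -0.05 and 0.03, while single genes stand away from them, with Sgk1 at 0.51, Myl2 at 0.71 and the lowest FoxO target, Pdk4, at -0.96. Pdk4 did not pass the test.

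The genes whose pattern over the 6 mice was most like that of Foxo1 were named by the smallest root mean square difference in log2 signal, after each gene was centred on its own mean, among 10849 other named genes. They were Lonrf3 at 0.029, Ifitm2 at 0.032 and Adh1 at 0.035, against a root mean square of 0.153 for Foxo1 about its own mean. All 3 passed the test upward, as the choice of a pattern like that of Foxo1 would give. For Fbxo32, the member with the widest range, the nearest were Psg23 at 0.095, Usp25 at 0.104 and Ddx6 at 0.109, against 0.237 for Fbxo32 about its own mean, and none of these passed (limma, adjusted p = 0.29, 0.205 and 0.48). The pattern of Fbxo32 was thus matched less closely than that of Foxo1.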

How the data were processed

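The deposited table holds 1 log2 value per probe set and mouse, as the authors submitted it, and the largest difference between its sorted columns was 0, as quantile normalization leaves them. Per the labels' protocols, biotin-labelled cRNA was prepared from Trizol and RNeasy extracts. The labels name no software for summarising the probes or for background correction, steps not given in the sources used here. Of 16492 gene probe sets, 15270 carry 1 symbol in the platform annotation and 1222 are unnamed here. Each array's depth is not defined; the number of arrays limits the precision.

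The fit used lmFit and eBayes of limma 3.58.1 in R 4.3.3, heterozygous minus wild type, over probe sets with a mean above the 30th percentile, with Benjamini-Hochberg adjustment over all of them. Errors are SD for means and SE for differences, and intervals are at 95%. Tested on simulated data of 11544 probe sets, the fit recovered 76% of differences of 0.3 and 98% of those of 0.5, called 10 unchanged probe sets, and called 0 in data without any change. The simulated noise was independent between mice, and the changed probe sets were drawn at random. The rates therefore do not describe a gene as variable as Fbxo32, with a pooled SD of 0.212 against a median of 0.055. The mice of both genotypes are numbered 1 to 3, and mice of the same number deviated together from their genotype's mean (correlations 0.187, 0.234 and 0.129, each above the 0.1 set for pairing). The mouse number was therefore also fitted as a block, as an alternative to the main fit, which had genotype only. The labels name no shared litter or day, so the pairing was read from these same data and is not known from the design. A blocked value is printed where it alters a call. Alternatives were no filter, a filter at the 50th percentile, trend and robust variances, array weights, cyclic loess, the block, and leaving out each mouse. The planned ratio of Trim63 to Trim55 was not analysed here.

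The members and lists were chosen with earlier results of these data known. Genes were named by a rule: all members, Neb, of each list the genes that passed (up to 4 in each direction) and the 2 with the smallest p, family genes that passed, and the 3 nearest patterns.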

Additional observations from a re-analysis of the deposited data

How the results depend on the processing

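The number of probe sets called was 572 with the replicate block, and 84 to 503 when 1 mouse was left out, against 359. The number of member genes called was 1 in every setting that kept all 6 mice, and 0 to 1 when a mouse was left out, since Foxo1 passed without heterozygous mouse 1 or 2 and not without any of the other 4 mice, fits with fewer mice. The log2 difference of Foxo1 lay between 0.28 and 0.29 in the settings with all mice (adjusted p = 0.0181 to 0.0312). The replicate block changed no call of a member. The difference of Foxo4 lay between -0.052 and 0.0039 with any 1 mouse left out, changing sign without heterozygous mouse 1, and was not called in any setting. The other members kept their direction in each setting run. Leaving out a mouse, chosen as an alternative after the data were seen, kept the direction of all 5 within-array ratios. Of the other named genes, Myl2 was not called with trend and robust variances (adjusted p = 0.0759) nor Trim24 with cyclic loess (0.0572), while Map1lc3a, Nedd4 and Myod1 were called with array weights (0.0403, 0.0385 and 0.0416) and Psg23 with the block (0.0304). The cause of these changes was not tested. Foxo3 could be fitted only with no filter, and Foxo4, Lonrf3 and Psg23 had no value with the filter at the 50th percentile. The dim signal of Foxo3 limits what its probe set can show.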
